A study of Homo sapiens with 12 samples.

Results

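The data described here are the response of SK-OV-3 cells to cisplatin (CDDP) on the arrays labelled shIRF-1, that is 3 arrays of cells given CDDP for 24 hours set against 3 arrays of cells given none. They are 6 of the 12 Illumina bead arrays of the study, which also holds 3 arrays with and 3 without CDDP under a scrambled control shRNA (shCTRL). SK-OV-3 is a human ovarian cancer line, and per the labels its cells were transfected with an shRNA against IRF-1 or with the control shRNA, so both groups compared here carry the same shRNA label and differ by the drug label. The dose of CDDP, and whether the shRNA lines were clones or pools, are not given in the sources used here. All probes detected (detection p-value under 0.05) on at least 3 of the 6 arrays were taken, which left 19481 of 47313 probes. These stand for 11477 named genes, each read through its brightest probe, and 4291 probes without exactly 1 gene symbol. Values below are normalized signals on a log2 scale, and a change of 1 on that scale is a change of 2-fold. Where a gene is given 2 runs of 3 values, the former are replicates 1 to 3 without CDDP and the latter replicates 1 to 3 with it.

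Between 18595 and 21126 probes were detected on each of the 6 arrays. Replicate arrays correlated at r = 0.976 to 0.985 (6 pairs), and arrays with CDDP against arrays without it at 0.926 to 0.954 (9 pairs). The leading principal component of the 6 arrays held 64.5% of the variance and put the 3 arrays with CDDP at 33.3 to 53.9 and the 3 without at -48.6 to -40.4. The labels do not state separate cultures, so the p-values cover only how far these samples scatter, and that scatter may be technical. Of 12 epithelial and ovarian markers, 10 were detected on all 6 arrays, among them the keratins KRT7, KRT8, KRT18 and KRT19, while WT1 and MUC16 were not among the probes tested. None of 5 endothelial markers was among the probes tested, nor were 5 of 7 fibroblast markers (COL1A2, COL3A1, DCN, PDGFRA and PDGFRB) and the leukocyte markers PTPRC, CD3E, MS4A1 and LYZ. The other 2 fibroblast markers, COL1A1 and LUM, were detected on all 6 arrays. The leukocyte markers CD14, CD68 and HLA-DRA were tested too. All 3 were detected on every array with CDDP, and 2 of them on every array without it.

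Cisplatin binds to DNA and links neighbouring bases, within a strand and between strands. The adducts stall replication forks and RNA polymerases, and cells answer through damage kinases, stress kinases, repair and, where damage persists, death. SK-OV-3 is known to lack functional p53. The protein IRF-1, made from IRF1, is an interferon-induced regulator of transcription, known to act on genes of antigen presentation and antiviral defence.

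IRF1, the target of the shRNA, was read first as a check of the labels. Its normalized log2 signal was 8.59, 8.14 and 8.20 on the arrays labelled shIRF-1 without CDDP and 8.94, 9.08 and 9.26 on those with CDDP. All 3 values with CDDP lay above the 3 without. The rise of 0.78 on the log2 scale (SE 0.25, n = 3 against 3, limma adjusted p = 0.0323) was past the threshold of 0.05. That call was lost without replicate 2 or 3 of the arrays without CDDP (adjusted p = 0.101 and 0.0873 by limma) and without replicate 2 or 3 of those with CDDP (0.0765 and 0.0959). Without CDDP, the shCTRL arrays read 8.30, 8.51 and 7.84, a range that overlapped that of the arrays labelled shIRF-1, and the mean on the latter was 0.10 higher on the log2 scale (limma adjusted p = 0.896). With CDDP the shCTRL arrays read 9.97, 10.38 and 9.38, and the arrays labelled shIRF-1 were lower by 0.82 on the log2 scale, which missed the threshold (adjusted p = 0.0840 by limma) and passed it without replicate 3 of the shCTRL arrays with CDDP (-1.08, adjusted p = 0.0248 by limma). IRF1 was thus not seen to be lower on the arrays labelled shIRF-1 in the absence of drug (difference 0.10, SE 0.25). These values do not bear out the label there, and with that SE they do not settle it. Any direction between the shRNAs given below rests on that label.

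With CDDP, stress transcription factors, inflammatory cytokines and genes of DNA replication were mostly higher, and many genes that extend over long stretches of the genome were lower. Of the 19481 probes, 4864 (25.0%) were called by limma at an adjusted p under 0.05, 2345 of them higher and 2519 lower with CDDP. On 7701 probes (39.5%) the 3 arrays with CDDP did not overlap the 3 without, and 4752 probes were both called and apart. Over the 11477 genes, 1637 (14.3%) rose and 1800 (15.7%) fell, and the median change over all genes was 0.01 on the log2 scale. At least 4-fold changes numbered 70 rises and 153 falls, and at least 8-fold changes 16 and 21. A group of 135 genes was detected on all 3 arrays with CDDP and on none without, and 136 genes the other way round. Because quantile normalization gives every array the same distribution of signals, each change is relative to the other probes, and in bulk RNA fewer cells of a type and less RNA per cell cannot be told apart.

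**Figure D1:**
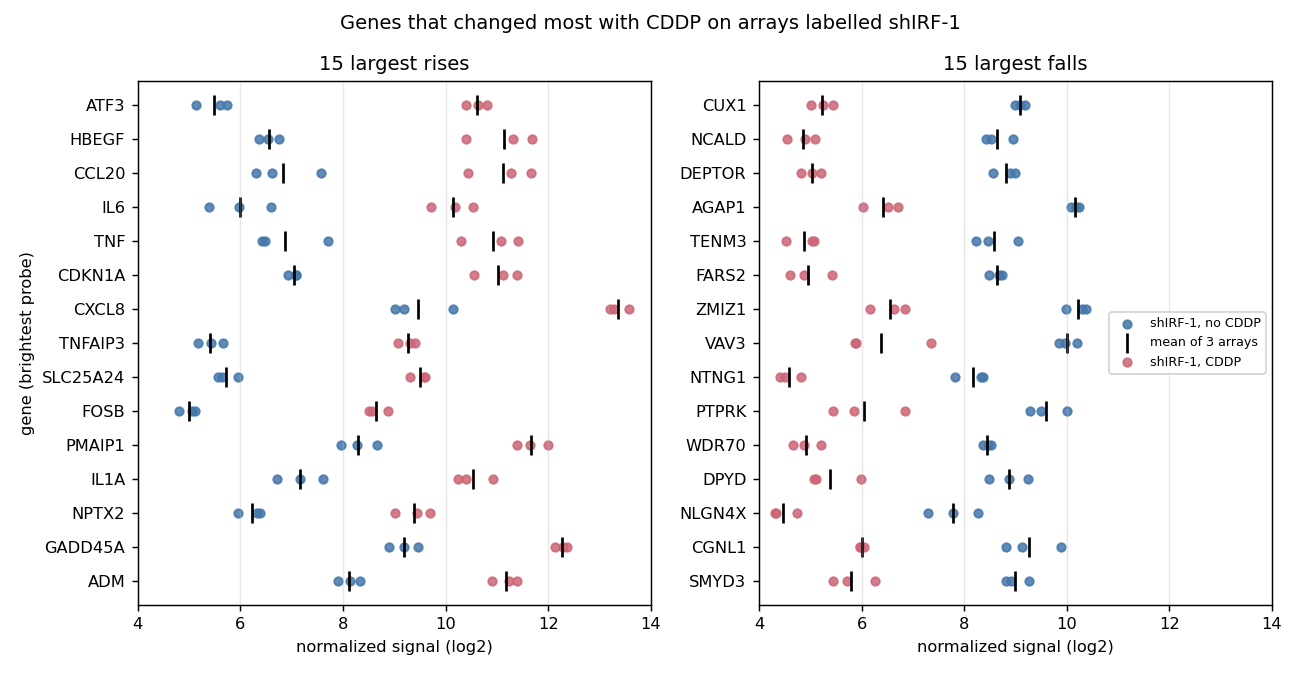
Normalized log2 signal (x axis) of the 15 genes with the largest rises (left) and the 15 with the largest falls (right) on the arrays labelled shIRF-1. Each point is 1 array, blue without CDDP and red with CDDP, and black bars are means of 3 arrays. The groups do not overlap for any of the 30 genes, as the choice of genes requires; ATF3 rose by 5.12 and CUX1 fell by 3.85.

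The largest rise of all was in ATF3, a stress-induced transcription factor of the ATF family. ATF3 read 5.74, 5.14 and 5.61 without CDDP and 10.81, 10.63 and 10.40 with it, so that the lowest array with CDDP lay more than 4 log2 units above the highest without. This is a 34.7-fold rise (log2 change 5.12, SE 0.22, limma adjusted p = 9.58e-09). Its relatives of the AP-1 family, dimers of FOS, JUN, ATF and MAF proteins that bind AP-1 sites, moved the same way: of 12 members tested, 9 rose, none fell and 3 were not called (median log2 change 1.22, against 0.01 over all genes). FOSB read 5.06, 4.81 and 5.11 without CDDP, detected on 2 of the 3 arrays, and 8.88, 8.5 and 8.56 with it, a rise of 3.66 (SE 0.31). MAFF, a small MAF protein without a transactivation domain, rose by 2.48 and FOS by 2.40.

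Immediate early genes, which are transcribed within minutes of a stimulus without new protein synthesis, were higher at 24 hours too. Of 20 tested, 12 rose, 1 fell and 7 were not called (median 0.82). SGK1, a kinase induced by serum and glucocorticoids, read 7.48, 7.97 and 7.72 without and 10.56, 10.90 and 10.38 with CDDP, a 7.41-fold rise (SE of the log2 change 0.19, adjusted p = 2.64e-07 by limma). The nuclear receptor NR4A2 rose by 2.49, the transcription factor KLF4 by 2.61 and IER5 by 2.19 on the log2 scale. Phosphatases that switch off MAP kinases, themselves products of that signalling, rose for 6 of 8 members with none lower (median 0.88). DUSP1, which acts on JNK and p38, read 10.36, 9.79 and 10.22 without and 12.38, 12.57 and 12.39 with the drug (log2 change 2.32), and DUSP5, which acts on ERK in the nucleus, rose by 1.99.

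The integrated stress response slows translation through phosphorylation of the initiation factor eIF2 and raises the transcription factor ATF4 and its targets. Of 18 members tested, 12 rose, 2 fell and 4 were not called (median 0.91). DDIT3, the transcription factor CHOP, read 5.93, 5.77 and 5.87 without CDDP and 8.85, 9.01 and 8.66 with it, a 7.91-fold rise (log2 change 2.98, SE 0.20, limma adjusted p = 2.99e-07). PPP1R15A, the subunit that directs a phosphatase back to eIF2, read 8.18, 7.42 and 7.49 and 11.05, 10.54 and 10.33 (log2 change 2.95). The groups did not overlap for either gene. STC2, a secreted glycoprotein, rose by 2.64, and CHAC1, which breaks down glutathione and was detected on no array without CDDP, was at least 2.65-fold higher (limma adjusted p = 1.17e-05). Genes of the unfolded protein response, the answer to misfolded protein in the endoplasmic reticulum, had 2 of 17 members higher and 1 lower (median -0.09). These are 11.8% and 5.88%, against 14.3% and 15.7% of all genes, and 14 members were not called. The 1 lower was 2 without replicate 1 of the arrays with CDDP and 3 without replicate 2 of those without it. DNAJB9, a co-chaperone of the endoplasmic reticulum, rose by 1.44, and ATF6, the membrane-bound sensor, fell by 1.32. Cytosolic heat shock proteins rose for 5 of 19 with none lower (median 0.36), a count that was 2 without replicate 1 of the arrays without CDDP or replicate 2 of those with CDDP and 3 without replicate 2 or 3 of the former or replicate 3 of the latter. The co-chaperone DNAJB4 rose by 0.97 on the log2 scale.

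A list of genes linked to p53, growth arrest and repair also had more rises than falls in these cells. CDKN1A encodes p21, an inhibitor of cyclin-dependent kinases, and its signal was 7.09, 7.08 and 6.93 without CDDP and 11.13, 11.40 and 10.55 with it. The 15.9-fold rise (log2 change 3.99, SE 0.30, limma adjusted p = 7.24e-07) separated the groups fully. GADD45A, which binds PCNA and stress kinases, read 9.19, 9.46 and 8.90 and 12.14, 12.29 and 12.36 (log2 change 3.08, SE 0.20). Of 20 members of this list, 11 rose, 1 fell and 8 were not called (median 0.70). SERTAD1, a regulator of CDK4, rose by 2.03 and the nuclease AEN by 1.30.

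PMAIP1 encodes NOXA, a BH3-only protein that binds MCL1. It read 7.96, 8.27 and 8.66 without CDDP and 11.64, 11.99 and 11.38 with it, a 10.4-fold rise (log2 change 3.38, SE 0.26, limma adjusted p = 8.63e-07), and its second probe passed the test in the same direction. Of 13 BCL2 family members 5 rose and none fell (median 0.28), but that count was 2 or 3 without any 1 of the 6 arrays labelled shIRF-1. MCL1 itself, an antiapoptotic member, rose by 0.87, a call that ended without replicate 2 of the arrays without CDDP (limma adjusted p = 0.0673) or replicate 1 of those with it (0.0697). Death receptors and caspases split, with 4 of 14 higher and 3 lower (median 0.17). The 4 fell to 2 without replicate 3 of the arrays without CDDP or replicate 2 of those with it. TNFRSF10D, a decoy receptor for TRAIL, read 6.26, 6.67 and 6.57 without and 8.99, 9.07 and 8.20 with CDDP (log2 change 2.26). The functional TRAIL receptor TNFRSF10B rose by 0.79, and TNFRSF1A, a receptor for TNF, fell by 1.17. TNFSF10, which encodes TRAIL, read 7.82, 5.96 and 7.04 and 5.29, 5.52 and 5.78 and fell by 1.41, a call that ended without replicate 1 of either group (limma adjusted p = 0.0678 and 0.0529).

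Cytokines and chemokines were 5 of the 15 largest rises. NF-kB, a family of dimers held in the cytoplasm by inhibitors until a signal releases them, is known to drive many of them together with AP-1. Of 16 cytokines and chemokines tested, 11 rose, none fell and 5 were not called (median 1.04). CCL20, a chemokine for cells that carry CCR6, read 7.57, 6.61 and 6.30 without CDDP and 11.27, 11.67 and 10.43 with it (19.6-fold, log2 change 4.30, SE 0.35, limma adjusted p = 1.4e-06). IL6, an inflammatory cytokine that signals through STAT3, read 6.59, 5.39 and 5.97 and 10.53, 10.19 and 9.72 (17.9-fold, log2 change 4.16). On the arrays without CDDP, replicate 1 was the highest for both genes, and the groups stayed apart.

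TNF, the cytokine tumour necrosis factor, read 7.70, 6.42 and 6.47 without and 11.40, 11.09 and 10.30 with CDDP (16.8-fold, log2 change 4.07, SE 0.35). CXCL8, a chemokine for neutrophils, read 10.15, 9.19 and 9.02 and 13.28, 13.58 and 13.21 (log2 change 3.90, SE 0.28, limma adjusted p = 4.21e-07). IL1A, an alarm cytokine of damaged cells, read 7.60, 7.15 and 6.71 and 10.41, 10.92 and 10.25 (log2 change 3.37). For each of these genes all 3 arrays with CDDP lay above all 3 without. HBEGF, a ligand of the EGF receptor that is shed from the cell surface, had the second largest rise, from 6.54, 6.76 and 6.36 to 11.32, 11.68 and 10.39 (23.9-fold, log2 change 4.58, SE 0.28, limma adjusted p = 1.46e-07). EGFR, the receptor itself, was lower in the same cells, at 7.28, 7.63 and 7.60 without and 5.14, 5.89 and 6.30 with CDDP (log2 change -1.73, adjusted p = 0.000206 by limma). ERBB2, a co-receptor that SK-OV-3 is known to overexpress, fell by 0.92. Another probe of each receptor was not called, at -0.30 for EGFR (limma adjusted p = 0.360) and -0.35 for ERBB2 (0.323). On the brightest probes, of 6 members of the EGF receptor list 1 rose and 2 fell (median -0.24).

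The promoters of 4 of these genes are shown because they are the first among the largest rises that hold a searched motif. Of the 15 largest rises, 14 had an entry in the RefSeq promoter table (build GRCh38.p14, 250 bases before the start and 50 after it), and 8 held at least 1 motif. Capitals mark the motifs. The cyclic AMP response element was searched as TGACGTCA on either strand. The AP-1 element was searched as TGANTCA and the NF-kB-type element as GGNNTTTCC, again on either strand. The TATA box was searched on the sense strand alone as TATAAA. A match at any position of the window was counted, as in IL1A, where TATAAA lies at -239. All 4 genes lie on the plus strand, the sequences run 5′ to 3′, and no motif overlapped another.
CCL20: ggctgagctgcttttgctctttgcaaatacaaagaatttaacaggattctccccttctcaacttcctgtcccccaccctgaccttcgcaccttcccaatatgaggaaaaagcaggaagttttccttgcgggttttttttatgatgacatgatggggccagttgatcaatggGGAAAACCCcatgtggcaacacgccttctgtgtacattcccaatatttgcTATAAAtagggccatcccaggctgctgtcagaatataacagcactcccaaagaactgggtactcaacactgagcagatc
IL6: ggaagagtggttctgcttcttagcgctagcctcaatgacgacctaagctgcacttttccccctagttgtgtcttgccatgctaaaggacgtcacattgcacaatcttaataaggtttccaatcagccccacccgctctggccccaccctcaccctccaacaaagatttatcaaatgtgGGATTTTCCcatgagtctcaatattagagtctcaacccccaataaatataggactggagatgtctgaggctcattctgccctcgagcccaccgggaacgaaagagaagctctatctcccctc
TNF: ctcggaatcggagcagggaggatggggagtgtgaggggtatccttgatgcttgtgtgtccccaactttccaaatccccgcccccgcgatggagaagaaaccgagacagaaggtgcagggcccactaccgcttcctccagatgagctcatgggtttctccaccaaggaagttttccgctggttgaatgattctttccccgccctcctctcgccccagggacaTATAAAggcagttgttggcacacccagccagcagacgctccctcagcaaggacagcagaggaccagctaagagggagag
CXCL8: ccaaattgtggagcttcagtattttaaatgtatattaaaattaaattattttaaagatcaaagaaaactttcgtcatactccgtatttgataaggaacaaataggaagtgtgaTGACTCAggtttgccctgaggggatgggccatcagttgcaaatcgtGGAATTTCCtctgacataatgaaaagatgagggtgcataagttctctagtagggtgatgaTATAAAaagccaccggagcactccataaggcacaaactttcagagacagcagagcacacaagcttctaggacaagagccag
The CCL20 promoter (chr2:227813592-227813891) held an NF-kB-type element whose first base lies at -79 from the start and a TATA box at -29. The IL6 promoter (chr7:22726950-22727249) held an NF-kB-type element at -72, and that of TNF (chr6:31575315-31575614) a TATA box at -29. In CXCL8 (chr4:73740319-73740618) an AP-1 element stood at -137, an NF-kB-type element at -91 and a TATA box at -31. Over all genes tested with a promoter entry (9266), 3.83% held the TATA box, 6.72% the NF-kB-type element, 4.49% the AP-1 element and 3.33% the cyclic AMP response element. Among the 59 of them that rose at least 4-fold, 17 (28.8%) held the TATA box. The shares there were 10.2% for the NF-kB-type element, 10.2% for the AP-1 element and 6.78% for the cyclic AMP response element. Among the 132 that fell at least 4-fold the TATA box share was 3.79%, close to that of all genes. A match describes the letters of these windows and is not evidence that a factor binds there.

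Inhibitors and subunits of NF-kB rose beside the cytokines. TNFAIP3, the ubiquitin-editing enzyme A20 that limits NF-kB signalling, read 5.66, 5.17 and 5.42 without CDDP and 9.40, 9.32 and 9.08 with it (14.4-fold, log2 change 3.85, SE 0.26, limma adjusted p = 2.99e-07). NFKB2, which encodes p100, the precursor of p52, read 4.99, 5.65 and 5.25 and 7.96, 8.34 and 7.51 (log2 change 2.64), and its partner RELB rose by 2.09. NFKBIA, the inhibitor IkB-alpha, rose by 1.89. Of 16 members of this list 7 rose, 1 fell and 8 were not called (median 0.70).

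Interferon-stimulated genes did not move as a group. Of 39 tested, 4 rose (10.3%), 4 fell (10.3%) and 31 were not called, below the 14.3% and 15.7% of all genes (median -0.04). The count of 4 lower was 2 without replicate 1 of the arrays without CDDP. IFIT1, an antiviral protein that binds foreign RNA ends, read 7.23, 6.71 and 7.02 without and 5.71, 5.24 and 5.92 with CDDP and fell by 1.37 (SE 0.32, limma adjusted p = 0.00631). OAS3, a synthetase of 2-5A that activates RNase L, read 7.76, 7.91 and 7.92 and 9.17, 8.87 and 9.18 and rose by 1.21. ISG15, a ubiquitin-like modifier, rose by 0.90 and the helicase DDX60 fell by 1.03. Under shCTRL the median over the list was 0.28, with 13 higher and 1 lower, and the difference between the lists was not tested. Gene by gene, 1 of the 39 was called for the difference of responses.

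Within the IRF family, IRF7, which amplifies interferon production, read 8.19, 8.13 and 8.57 and 9.97, 9.49 and 9.58 and rose by 1.38 (SE 0.20, adjusted p = 0.000196 by limma). Of 5 family members tested, 2 rose, IRF1 among them, and 1 fell (median 0.33). IRF2, known as an antagonist of IRF-1, read 6.29, 6.35 and 5.29 and 5.50, 5.03 and 5.13. The groups overlapped, and its log2 change of -0.76 (adjusted p = 0.0463 by limma) was no longer called without any 1 of 9 of the 12 arrays, where the adjusted p was 0.0527 to 0.178. The exceptions were replicate 1 with CDDP and replicate 3 without it under the shIRF-1 label, and replicate 3 with CDDP under shCTRL. Of the family's 2 rises 1 was left without replicate 2 or 3 of either group. Antigen presentation genes, known IRF-1 targets among them, had 2 of 16 higher and none lower (median 0.22). The 12.5% higher is near the 14.3% of all genes, of which 15.7% were lower. TAP2, a subunit of the peptide transporter, rose by 0.92, and its partner TAP1 rose by 0.84, a call that ended without replicate 1 of the arrays with CDDP (limma adjusted p = 0.0541). The list's count of 2 was 4 without replicate 1 of the arrays without CDDP and 1 without replicate 1 of those with it.

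Genes of DNA replication rose together. Of 42 S phase genes tested, 29 rose, 1 fell and 12 were not called (median 0.69). The mean over the list was 8.55, 8.80 and 8.73 on the arrays without CDDP and 9.37, 9.51 and 9.49 on those with it. MCM10, which helps to load polymerase at origins, read 7.80, 8.07 and 8.17 and 9.82, 9.93 and 9.67 (log2 change 1.80, SE 0.19, limma adjusted p = 1.17e-05). DTL, a receptor of a ubiquitin ligase that acts on CDT1 and p21, read 7.39, 7.95 and 7.89 and 9.45, 9.70 and 9.37 (log2 change 1.76). CDT1, a licensing factor of origins, rose by 1.62 and RRM2, a ribonucleotide reductase subunit, by 1.57. Upstream of them, G1 regulators rose for 6 of 16 members and fell for 2 (median 0.31). CDC25A, the phosphatase that activates CDK2, read 6.75, 6.25 and 6.53 without and 9.28, 9.29 and 8.93 with CDDP (6.30-fold, log2 change 2.65, SE 0.22, adjusted p = 1.4e-06 by limma). Cyclin E1, CCNE1, which drives entry into S phase, read 7.97, 8.36 and 8.49 and 10.21, 10.55 and 9.77 (log2 change 1.90). E2F2 rose by 1.97 and CDK2 by 1.56. Under shCTRL 14 of the S phase genes rose and 2 fell (median 0.43), and the difference between these counts was not tested. Gene by gene, none of the 42 was called for the difference of responses.

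Mitotic genes as a list had a median near 0 (-0.04). Of 48 tested, 9 rose (18.75%, against 14.3% of all genes), 2 fell and 37 were not called. The 9 dropped to 4 or 5 without replicate 1 or 3 of the arrays without CDDP or without any 1 array with CDDP. CDK1, the mitotic kinase, rose by 1.24 (SE 0.24), PLK4, which sets centriole number, rose by 0.97, and PLK1 read 7.14, 7.5 and 6.95 and 6.10, 5.70 and 6.48 and fell by 1.10. Under shCTRL 3 of the mitotic genes rose and 13 fell (median -0.34), again with no test of the difference between the counts. None of the 48 genes was called for the difference of responses. The call for PLK1 ended without replicate 2 of either group (limma adjusted p = 0.0647 and 0.0786). Repair of crosslinks and double-strand breaks, the lesions that follow from cisplatin crosslinks, rose for 14 of 32 genes and fell for 3 (median 0.38). All 3 that fell extend over more than 100 kb of the genome. The 14 became 7 without replicate 1 of the arrays without CDDP and 9 without replicate 2 of those with it. The exonuclease EXO1 read 6.91, 7.13 and 7.65 and 9.12, 9.50 and 9.06 (log2 change 1.99, adjusted p = 1.34e-05 by limma), and the recombination factors XRCC3 and RAD54L rose by 1.52 and 1.44. FANCC, a core member of the Fanconi anaemia complex, fell by 1.19. Nucleotide excision repair, which removes cisplatin adducts within a strand, had 2 of 18 members higher and 2 lower (median -0.03). That is 11.1% each way, against 14.3% and 15.7% of all genes. MNAT1, of the CDK-activating kinase in TFIIH, fell by 1.58.

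Several short transcripts of the RNA processing machinery were among the called rises. Of 13 spliceosomal and 7SK RNAs tested, 8 rose and none fell (median 1.27). RNU4-2, the U4 small nuclear RNA, read 6.12, 5.98 and 5.78 without CDDP and 9.42, 9.21 and 8.39 with it (8.25-fold, log2 change 3.04, SE 0.25, limma adjusted p = 1.23e-06). RN7SK, which holds the elongation kinase P-TEFb inactive, read 8.01, 7.71 and 6.46 and 10.08, 9.68 and 8.82 (log2 change 2.13). Host genes of small nucleolar RNAs rose for 9 of 11 (median 1.15), among them SNHG1, which read 8.60, 8.70 and 9.21 and 10.49, 10.99 and 10.63. H/ACA and Cajal body guide RNAs, which direct pseudouridylation, rose for 17 of 73 with none lower (median 0.43), a count of 11 without replicate 1 of the arrays without CDDP and 8 without replicate 1 of those with it. C/D box RNAs, which direct ribose methylation, rose for 15 of 52 and fell for 4 (median 0.41). SNORA61 rose by 1.51, and SNORD99, detected on no array without CDDP, was at least 2.38-fold higher. Most guide RNAs lie in introns of host genes and members of a family share sequence, and which transcript each probe reads was not tested. Histone genes, many of whose transcripts lack a poly(A) tail, rose for 6 of 30 and fell for 2 (median 0.45). That count was 2 or 3 without replicate 2 or 3 of the arrays without CDDP or replicate 2 of those with it, and 10 without replicate 3 of the shCTRL arrays with CDDP.

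The largest falls were in long genes. A gene's span here is the distance from its first to its last base in RefSeq (GRCh38.p14), introns included, which was available for 11469 genes. The 15 largest falls spanned 174 to 1355 kb and the 15 largest rises 2.33 to 66.3 kb. Of the 153 genes that fell at least 4-fold, 95.4% were longer than 100 kb, against 1.43% of the 70 that rose at least 4-fold and 16.5% of all. Among 1461 genes of up to 5 kb, 20.1% rose and 5.0% fell. Among 1207 genes of 100 to 200 kb, 2.15% rose and 44.7% fell, and among 184 genes over 400 kb 0.543% rose and 72.3% fell. The median log2 change went from 0.20 at 5 to 20 kb through -0.15 at 50 to 100 kb to -1.11 at 200 to 400 kb. Across genes the Spearman correlation of span and change was -0.44, a description over genes that share the same 6 arrays. The trend was not particular to the shIRF-1 label. Under shCTRL the median change was 0.25 at 5 to 20 kb, -0.22 at 50 to 100 kb and -1.18 at 200 to 400 kb.

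**Figure D2:**
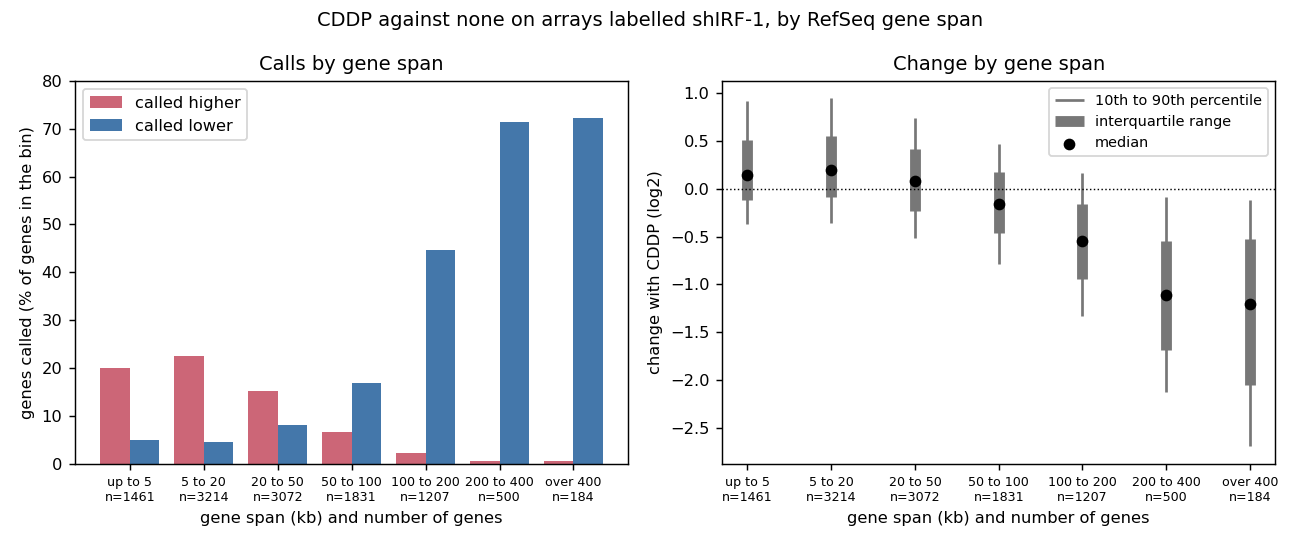
Calls and changes with CDDP on the arrays labelled shIRF-1 by bin of gene span (x axis, kb, with the number of genes). Left, the percent of genes called higher (red) or lower (blue); right, the median log2 change (point) with the interquartile range (thick line) and the 10th to 90th percentile (thin line). The share called lower goes from 5.0% in the shortest bin to 72.3% in the longest.

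With each gene read on its brightest probe, CUX1, a homeobox transcription factor, had the largest fall. It read 9.17, 9.08 and 8.99 without CDDP and 5.25, 5.44 and 5.01 with it (14.4-fold lower, log2 change -3.85, SE 0.23, limma adjusted p = 1.46e-07, span 468 kb). Its other probe fell by 0.82 (adjusted p = 0.00841 by limma), and the second probe of NCALD, named below, fell by 4.09. AGAP1, a GTPase-activating protein for Arf, read 10.09, 10.19 and 10.23 and 6.03, 6.71 and 6.51 (log2 change -3.75). ZMIZ1, a coactivator related to PIAS proteins, read 9.98, 10.36 and 10.30 and 6.17, 6.63 and 6.84 (log2 change -3.67). In all 3 genes the groups lay more than 3 log2 units apart. FARS2, which charges mitochondrial tRNA with phenylalanine, read 8.73, 8.48 and 8.69 and 4.60, 5.42 and 4.87 (log2 change -3.67). VAV3, a guanine nucleotide exchange factor, read 10.19, 9.85 and 9.97 and 5.86, 5.90 and 7.34, with replicate 3 the highest of the arrays with CDDP. DPYD, which breaks down uracil and the drug fluorouracil, read 8.88, 8.49 and 9.24 and 5.08, 5.98 and 5.11 (log2 change -3.48). NTNG1 and NLGN4X, both adhesion proteins of synapses, were detected on all 3 arrays without CDDP and on none with it, and were at least 10.03-fold and at least 7.64-fold lower. TENM3 (teneurin 3), NCALD (a neuronal calcium sensor), the receptor phosphatase PTPRK, WDR70, the junction protein CGNL1 and the methyltransferase SMYD3 fell by 3.20 to 3.79. DEPTOR, an inhibitor of mTOR, fell by 3.79 and is taken up again with the shCTRL arrays below. Long genes that rose were few. Over 200 kb there were 4: FRMD6, of 334 kb, rose by 1.12 on the log2 scale, CAMTA1, of 984 kb, by 0.95, PHLDB2 by 0.73 and SGMS1 by 0.59. These 4 fell outside the rule for named genes and were chosen after their values were seen.

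Lists of genes of shared function were split at a span of 100 kb. Genes at common fragile sites, regions prone to breaks when replication is slowed, all span more than 100 kb, and 11 of 14 fell with none higher (median -1.81). FTO, a demethylase of RNA, read 7.44, 6.89 and 7.34 and 4.49, 4.80 and 4.91 (log2 change -2.49). Among chromatin modifiers 18 of 55 fell and 2 rose (median -0.39), 15 of 25 over 100 kb and 3 of the 30 shorter ones being lower. The histone deacetylase HDAC4 read 7.11, 7.34 and 7.72 and 4.38, 4.96 and 4.47 (log2 change -2.79), while the deacetylase SIRT1 rose by 1.38. Ubiquitin-specific proteases fell for 10 of 38 and rose for 3 (median -0.07), and USP34 fell by 1.87. Lower were 7 of the 12 over 100 kb and 3 of the 26 shorter ones. ZNF zinc finger genes, many of them transcriptional repressors, had more rises than falls: 82 of 371 rose and 24 fell (median 0.30). Of the 19 over 100 kb, 11 fell and 1 rose, and of the 352 shorter ones 13 fell and 81 rose. The 82 were 54 without replicate 2 of the arrays with CDDP. ZNF280A, detected on no array without CDDP, was at least 3.88-fold higher, and ZNF407 fell by 2.41. Because genes of different function differ in span, the span of a list and its function cannot be told apart from these counts.

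Adhesion molecules and receptor kinases had more falls than rises. Of 29 tested, 12 fell and 2 rose (median -0.42), 8 of the 12 members over 100 kb and 4 of the 17 shorter ones being lower. The receptor phosphatase PTPRM fell by 2.73 and PTK2, the focal adhesion kinase, by 2.07. Epithelial and ovarian markers fell for 6 of 10 with none higher (median -0.92). KRT19, a keratin of simple epithelia, read 11.63, 11.63 and 12.03 without and 9.45, 9.54 and 10.34 with CDDP (log2 change -1.98, SE 0.23, limma adjusted p = 2.56e-05). CDH1, which encodes E-cadherin, read 9.37, 8.94 and 9.47 and 7.46, 7.10 and 7.98 (log2 change -1.74). PAX8, a transcription factor of Mullerian epithelium, read 9.18, 9.19 and 9.57 and 7.67, 7.72 and 7.86 (log2 change -1.56), and no array overlapped between the groups for any of the 3. Fibroblast markers (0 of 2 called) and leukocyte markers (0 of 3 called, CD14 at 0.62) did not pass the test. Of 8 keratins tested, KRT80 rose by 0.79, KRT19 fell and 6 were not called (median -0.05). That is 12.5% each way, near the 14.3% and 15.7% of all genes. Among 13 claudins 2 rose (15.4%) and 1 fell (7.69%), with a median of -0.18. CLDN23 rose by 0.65, a call lost under median scaling (limma adjusted p = 0.185). The 1 claudin lower was 0 without replicate 1 of the arrays without CDDP or replicate 2 of those with it, and 2 without replicate 2 of the former.

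Signalling pathways of development had members called in both directions. In the Wnt pathway 11 of 24 members fell and 2 rose (median -0.59), and the 11 were 7 without replicate 1 of the arrays without CDDP or replicate 2 of those with it. Lower were 7 of the 9 members over 100 kb and 4 of the 15 shorter ones. The co-receptor LRP5 read 7.91, 7.82 and 7.87 without and 6.41, 6.47 and 6.15 with CDDP (log2 change -1.52, limma adjusted p = 2.11e-05). The ligand WNT7A fell by 1.60 and the nuclear effector TCF7L2 by 1.54, while DKK1, a secreted inhibitor of the pathway, read 7.44, 7.51 and 8.09 and 9.51, 10.22 and 10.49 and rose by 2.39. In the TGF-beta and BMP list 7 of 25 rose and 7 fell (median -0.20). Lower were 5 of the 7 members over 100 kb and 2 of the 18 shorter ones. ID2, an inhibitor of helix-loop-helix factors, rose by 2.37, the decoy receptor BAMBI by 1.83 and the ligand BMP2 by 1.67, and the receptor BMPR2 fell by 1.69. In the Hippo pathway 2 of 16 rose and 2 fell (median 0.21), each a share below the 14.3% and 15.7% of all genes. The kinase STK3 fell by 2.06, the coactivator YAP1 by 0.92, and ANKRD1, a YAP target, and the scaffold SAV1 rose by 1.43 and 0.91. Under median scaling YAP1 (limma adjusted p = 0.0702) and SAV1 (0.0563) were not called.

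Drug handling and metabolism changed for single genes. Transporters of platinum and copper and drug exporters rose for 3 of 13 and fell for 5 (median -0.33). All 3 members over 100 kb fell, against 2 of the 10 shorter ones. ABCC4, an exporter of organic anions, read 9.66, 9.21 and 9.40 without and 6.92, 7.20 and 7.09 with CDDP (log2 change -2.35, adjusted p = 3.56e-06 by limma). ABCC3 fell by 1.44, and the copper pumps ATP7A and ATP7B, which are known to carry cisplatin, by 1.24 and 1.23. Of 7 genes of metallothioneins, which bind metals through cysteine, and their regulators, 1 fell (14.3%, near the 15.7% of all genes). It was the zinc exporter SLC30A1, lower by 1.18, and the median change of the list was -0.01. In the glutathione and NRF2 list 5 of 23 rose and 3 fell (median 0.08), with the 5 at 3 without replicate 1 of the arrays without CDDP. The haem oxygenase HMOX1 rose by 1.27 and malic enzyme ME1 fell by 1.29. Fatty acid synthesis fell for 4 of 13 with none higher (median -0.43), led by acetyl-CoA carboxylase ACACA at 10.26, 9.98 and 10.22 and 7.75, 7.98 and 8.41 (log2 change -2.10). All 3 members over 100 kb fell, ACACA among them, against 1 of the 10 shorter ones. Cholesterol synthesis fell for 3 of 18 (16.7%, near the 15.7% of all genes, median -0.17). That count was 1 without replicate 1 of the arrays without CDDP or replicate 3 of those with it. The regulator SREBF1 fell by 0.91. Hypoxia-response genes rose for 7 of 23 and fell for 2 (median 0.27), and the 7 were 4 without replicate 1 of the arrays with CDDP. ADM, a vasodilator peptide, read 8.33, 8.14 and 7.90 and 11.25, 11.39 and 10.90 (8.32-fold, log2 change 3.06), and the glucose transporter SLC2A1, also a hypoxia target, fell by 1.29.

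Large housekeeping families were mostly not called. Over all genes, 14.3% rose and 15.7% fell. Cytosolic ribosomal proteins rose for 2 of 67 with none lower (median 0.03), RPL37 by 0.97 and, on its brightest probe, RPL34 by 1.00. The other probe of RPL34 moved the opposite way and fell by 0.96 (limma adjusted p = 0.00489), so the direction for that gene is unsettled. Of 33 proteasome subunits 1 was called (median 0.07). Respiratory chain subunits rose for 5 of 86 and fell for 4 (median -0.06). Mitochondrial ribosomal proteins rose for 13 of 79 (16.5%, near the share of all genes) and fell for 4 (median 0.09). The 13 were 6 to 8 without any 1 of the 3 arrays without CDDP or without replicate 2 of those with it. The counts of 4 lower there were 1 or 2 without any 1 of the 3 arrays without CDDP or replicate 3 of those with it. MRPS28 fell by 1.42. Translation initiation factors rose for 9 of 52 (17.3%) and fell for 1 (median 0.05), with EIF4EBP2 higher by 1.27. Cytosolic tRNA synthetases had 3 of 18 higher (16.7%) and 1 lower (median 0.08). The 3 were 0 or 1 without any 1 of the 6 arrays labelled shIRF-1. Mitochondrial ones had 1 of 16 higher and 4 lower (median -0.20). All 4 members over 100 kb were lower, and none of the 12 shorter ones. F-box proteins rose for 6 of 43 and fell for 5 (median -0.05), with FBXO45 higher by 1.86. Factors of transcription elongation rose for 5 of 21 and fell for 4 (median 0.16), the 4 being 2 without replicate 1 or 3 of the arrays without CDDP or replicate 1 or 2 of those with it. The P-TEFb subunit CCNT1 rose by 1.07, POLR2A, the large subunit of RNA polymerase II, by 1.05, and AFF1, a scaffold of the super elongation complex, fell by 1.29. Among 11 serpins SERPINB8 rose by 1.21 and none fell (median 0.23).

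Each call rests on the brightest probe of its gene. For SLC25A24, among the 15 largest rises at 3.78, the other probe changed by 0.04 and was not called (limma adjusted p = 0.935). Another probe was not called for TNFRSF10B (0.38), MCL1 (0.88), OAS3 (0.55), IRF2 (-0.07), TAP2 (0.48), PAX8 (-0.45), KRT80 (0.23), ATP7B (-0.23) and SREBF1 (-0.24), with the log2 change of that probe in brackets.

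Small counts in these lists moved by over 1.5 times without single arrays. The 1 member lower was not called without any of several arrays for the immediate early, NF-kB, IRF family and translation initiation lists, nor was the 1 mitochondrial tRNA synthetase higher, nor the 1 proteasome subunit without replicate 2 of the arrays without CDDP. Counts of 2 became 1 or 0 for the higher members of the nucleotide excision repair, unfolded protein response, Wnt, chromatin and claudin lists. The same held for the lower members of the mitosis, nucleotide excision repair, G1, hypoxia and histone lists. The 3 repair genes lower were 1 without replicate 1 of the arrays with CDDP or replicate 3 of those without, and the 4 C/D box RNAs lower were 1 or 2 without any 1 of 4 arrays labelled shIRF-1.

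**Figure D3:**
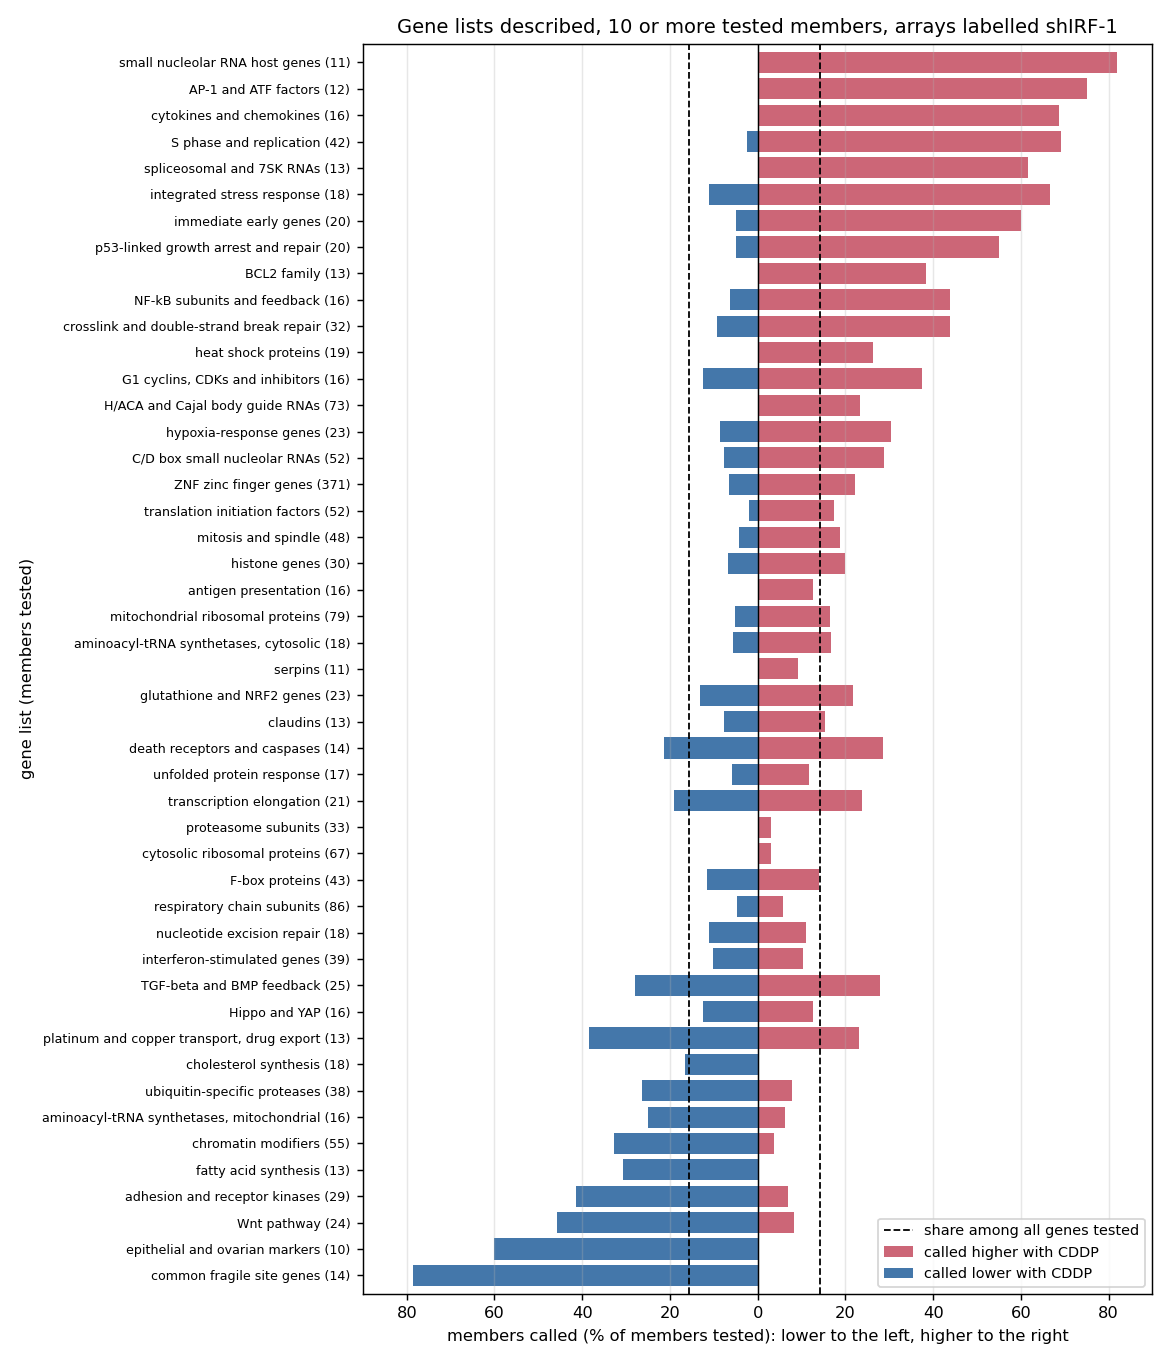
Share of tested members called higher (red, right) or lower (blue, left) with CDDP on the arrays labelled shIRF-1, for the gene lists described here with 10 or more tested members (number in brackets). Dashed lines mark the shares among all genes tested, 14.3% higher and 15.7% lower. Host genes of small nucleolar RNAs stand at the top with 9 of 11 higher and fragile site genes at the bottom with 11 of 14 lower.

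The same comparison under shCTRL was set beside these values to ask where the response differed between the shRNA labels. The test of the difference itself called 16 of 19481 probes (0.0821%), with 1603 at an unadjusted p under 0.05, by limma. Under shCTRL 1941 genes rose and 2023 fell. Of the rises on the arrays labelled shIRF-1, 1190 were also called higher under shCTRL (72.7% of the former and 61.3% of the latter), and of the falls 1396 (77.6% and 69.0%), with 9 genes called in opposite directions. Each response has its own arrays without CDDP. Some list counts were close. Under shCTRL 8 AP-1 and ATF factors, 12 cytokines and chemokines and 12 integrated stress response genes rose, and 11 fragile site genes fell. On the shIRF-1 label these counts were 9, 11, 12 and 11. Counts for the S phase, mitosis and interferon lists above lay further apart. The count of 16 was 4 to 10 without any 1 of 9 arrays, and 14, 17 and 16 without replicate 3 of shCTRL with CDDP and without replicates 2 and 3 of the shIRF-1 label without CDDP.

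IFIT2, an interferon-stimulated gene and relative of IFIT1, read 5.53, 4.93 and 5.22 without and 7.20, 7.0 and 6.71 with CDDP under shCTRL, a rise of 1.74 (limma adjusted p = 3.38e-05). On the arrays labelled shIRF-1 it read 6.23, 5.74 and 6.42 and 5.76, 5.67 and 5.92, with overlapping ranges and a log2 change of -0.35 (adjusted p = 0.271 by limma). The difference of the responses was -2.09 (SE 0.31, limma adjusted p = 0.0179). That call was lost in 8 of 21 alternatives, with an adjusted p of up to 0.0771 by limma. They were median scaling and the fits without replicate 1 of the shIRF-1 label without CDDP, replicate 1 or 2 of that label with CDDP, replicate 2 or 3 of shCTRL without CDDP, or replicate 1 or 2 of shCTRL with it. AKAP19, an anchor of protein kinase A, rose by 0.86 under shCTRL and fell from 7.99, 7.63 and 7.68 to 6.39, 6.90 and 6.60 on the arrays labelled shIRF-1 (difference -1.995, adjusted p = 0.0179 by limma). The call for AKAP19 was lost in 7 of 21 alternatives, where the limma adjusted p reached 0.250 under median scaling. The others were the fits without replicate 1 of the shIRF-1 label without CDDP, replicate 1 or 3 of that label with CDDP, replicate 1 or 2 of shCTRL without CDDP, or replicate 2 of shCTRL with it. For both genes every array labelled shIRF-1 without CDDP lay above every shCTRL array without CDDP.

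DEPTOR gave the largest difference on both of its probes. On the arrays labelled shIRF-1 it fell from 8.89, 8.57 and 8.99 to 4.82, 5.04 and 5.21, a log2 change of -3.79 (SE 0.17, limma adjusted p = 1.12e-08). Under shCTRL it started at 5.22, 5.39 and 5.32, and was detected on no array with CDDP, so that its fall there is known only as a bound and the difference of -2.90 (adjusted p = 0.000103 by limma) is not read as a difference of responses. MPPED2, a phosphodiesterase, and LMO3, a LIM-domain cofactor, were detected under shCTRL on no array with or without CDDP and were lower with CDDP on the arrays labelled shIRF-1. MPPED2 fell from 6.45, 6.66 and 7.45 to 4.46, 4.40 and 4.89. LMO3 went from 6.26, 6.23 and 7.33 to 4.50, 4.46 and 4.52, was detected there on no array with CDDP and was at least 3.39-fold lower. Their differences of -2.17 and -2.07 are likewise not read as differences of responses.

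**Figure D4:**
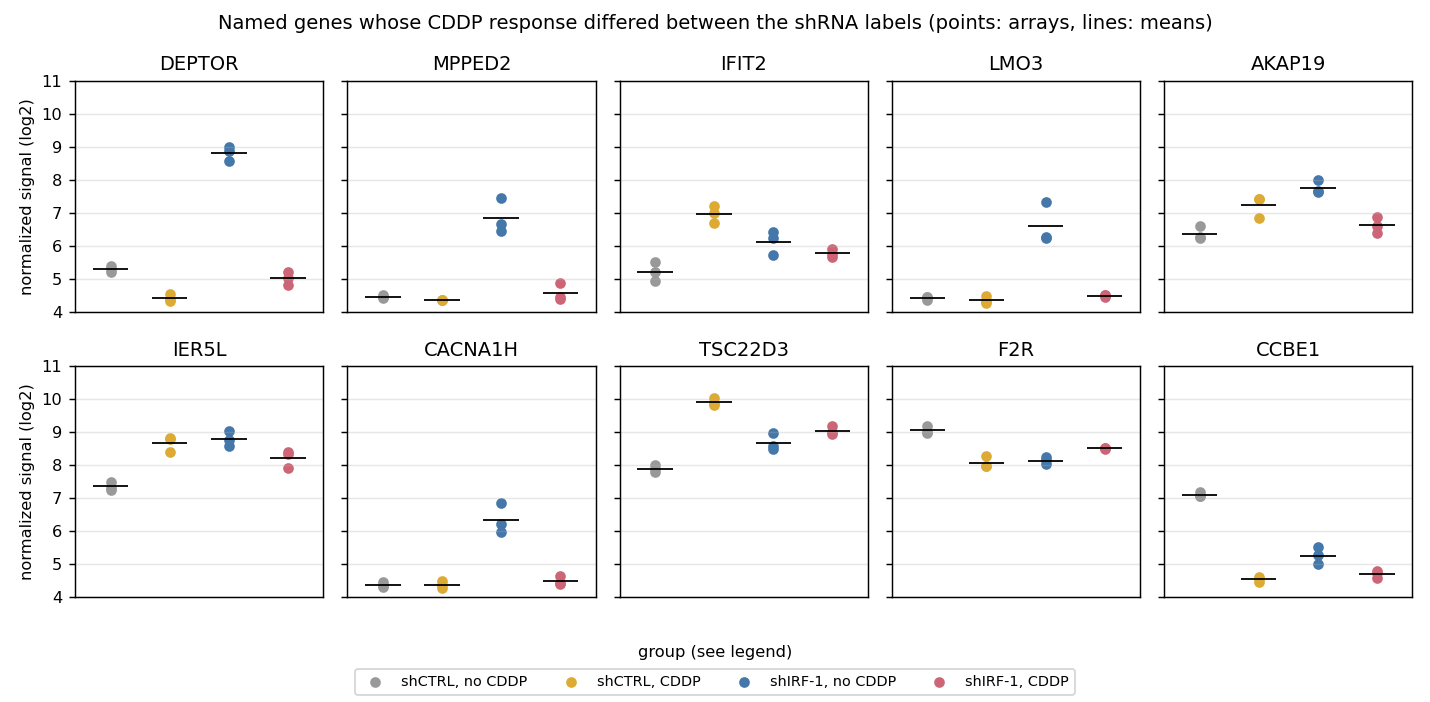
Normalized log2 signal (y axis) in all 4 groups for 10 genes with a probe called for the difference of CDDP responses; each point is 1 array and each line the mean of 3. IFIT2, AKAP19, IER5L and TSC22D3 rise under shCTRL but not, or less, on the arrays labelled shIRF-1, while DEPTOR, MPPED2, LMO3 and CACNA1H lie near the floor under shCTRL. With CDDP, CCBE1 lies near the floor under both labels.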

How the data were processed

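RNA of 12 SK-OV-3 samples in 4 groups of 3 was measured on Illumina bead arrays as biotinylated cRNA, per the labels' protocols. The deposited table holds, per the file headers, a signal for each probe and array (an intensity on a linear scale) and a detection p-value, and the submitters' processing notes name BeadStudio 2. Per the file headers the detection p-value belongs to the same array as the intensity beside it. The deposited series matrix was a linear rescaling of the same signals (r = 1 on each array) and served as an alternative. Background was corrected and all 12 arrays were quantile normalized with neqc (limma 3.58.1, R 4.3.3, offset 16), so that fold changes of dim probes are understated. The probes kept were those that at least 3 of the 6 arrays labelled shIRF-1 detected (p under 0.05), and limma was fitted with 4 group means over the 12 arrays (8 residual and 6.45 prior degrees of freedom). P-values were adjusted by Benjamini-Hochberg over 19481 probes, with calls at 0.05. The number of arrays limits the precision.

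Probes were named through the platform annotation and RefSeq symbols (30109 probes with 1 symbol, 8 with several, 17196 with none). A gene is its brightest probe over the 6 arrays. A gene whose probes are detected on no array of a group is given as a bound ("at least"). The genes named are IRF1, the 15 largest rises and 15 largest falls with non-overlapping arrays, the largest called differences of responses (up to 5 in each direction) and, from each list, at most 4 members, those called taken first. The members and lists were chosen with earlier results of these data known, and support nothing by their choice. Spans and motifs are descriptions with no test. The fit was tested on simulated data. The alternatives were no background correction, median scaling, the series matrix, other detection filters, 1 probe per gene, a variance trend, array weights, a replicate block, the 6 arrays alone and leaving out each array. Some results are not reported here.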

Additional observations from a re-analysis of the deposited data

Results flagged for a closer look

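The response to CDDP differed between the shRNA labels by limma on 16 probes, and the values are differences of log2 changes (shIRF-1 label minus shCTRL) with adjusted p. IRF1 was not lower on the arrays labelled shIRF-1 without CDDP, so the direction rests on that label. Where a group has no detected array, the value is a difference of signals at the floor and not of responses.

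DEPTOR gave -2.90 and, on its second probe, -2.81 (limma adjusted p = 0.000103 for both), with no array of shCTRL with CDDP detected. NCALD gave -1.48 on its second probe (0.0409), again with no array of shCTRL with CDDP detected. MPPED2 gave -2.17 (0.0179), LMO3 -2.07 (0.0341) and CACNA1H -1.86 (0.0234), and none of these was detected under shCTRL.

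IFIT2 gave -2.09 (limma adjusted p = 0.0179), with changes of -0.35 on the shIRF-1 label and 1.74 under shCTRL. AKAP19 gave -1.995 (0.0179), with -1.14 and 0.86. IER5L gave -1.88 (0.0179), with -0.56 and 1.31. TSC22D3, a glucocorticoid-induced leucine zipper protein, gave -1.66 (0.0179), with 0.36 and 2.02. A probe of RPS29, a ribosomal protein gene, gave -1.83 (0.0478), with 0.93 and 2.76. A probe of F2R, a thrombin receptor, gave 1.36 (0.0341), with 0.37 and -0.99. A probe of CCBE1 gave 1.998 (limma adjusted p = 0.00407), with -0.56 and -2.56. With CDDP this CCBE1 probe read 4.58, 4.74 and 4.79 on the shIRF-1 label and 4.48, 4.57 and 4.61 under shCTRL. Each of these values lay under the lowest detected signal of its array. The CCBE1 difference is thus one of signals at the floor and not of responses. The RPS29, F2R, CCBE1 and second NCALD probes are not the brightest of their genes. Starting levels differed between the labels. Without CDDP, every array labelled shIRF-1 lay above every shCTRL array for IFIT2, AKAP19, IER5L, TSC22D3, RPS29 and ILMN_3240626. It lay below every such array for F2R, CCBE1, ILMN_1764709 and ILMN_1673113. Of the probes without exactly 1 symbol, ILMN_1764709 gave -2.44 (0.0234), ILMN_3240626 -1.82 (0.00798) and ILMN_1673113 1.52 (0.0280). Both DEPTOR probes and CCBE1, whose values rest on signals at the floor, were called in every alternative that tested them. ILMN_3240626 lost its call under median scaling alone (limma adjusted p = 0.230). The other calls were less stable. The call was lost in 14 of 19 alternatives for NCALD, in 13 of 20 for F2R, RPS29 and LMO3, in 12 of 20 for CACNA1H and in 9 of 20 for MPPED2. It was lost in 12 of 21 for ILMN_1673113, 9 of 21 for TSC22D3, 8 of 21 for IFIT2, 7 of 21 for AKAP19, 6 of 21 for IER5L and 6 of 20 for ILMN_1764709.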

How the results depend on the processing

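No named gene's call changed direction in any of 22 alternatives. Of 208 named genes called, 169 were called in every alternative that tested them and 39 lost the call in at least 1, and 9 of the 26 not called passed in at least 1. Median scaling gave 1176 probes higher and 1520 lower and moved 48 of 110 list counts by over 1.5 times (S phase genes higher went from 29 to 18, ZNF genes higher from 82 to 39). It called 7 probes for the difference of responses, as did a detection p under 0.01 on all 6 arrays. The share of calls that were higher was 43.6% to 51.5% over the alternatives (48.2% as reported). Leaving out 1 array gave 1660 to 2531 probes higher, 1959 to 2670 lower and 4 to 17 differences. The IRF1 change with CDDP was 0.79 (limma adjusted p = 0.0811) under median scaling and 0.78 (0.0746) without a detection filter, and 0.70 to 0.93 without 1 array. IRF1 on the shIRF-1 label against shCTRL with CDDP was -0.77 (limma adjusted p = 0.0406) with the series matrix and -1.08 to -0.58 without 1 array. With the replicate number as a replicate block, 2604 probes were higher and 2753 lower, and IRF2 (limma adjusted p = 0.0513), ERCC3 (0.0563) and the NCALD difference (0.0546) were not called. Same-numbered arrays deviated together at r = 0.187, 0.0829 and 0.242 on the shIRF-1 label and at 0.229, 0.193 and 0.246 under shCTRL. Replicate 2 on the shIRF-1 label was below 0.1, and its array without CDDP correlated best with array 1 with CDDP (0.0903), so the numbers were not taken to pair the samples. The cause of these changes was not tested. Probes near the floor give bounds only.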

Other observations

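Among the 4291 probes without exactly 1 gene symbol, 272 were called higher and 286 lower with CDDP by limma on the arrays labelled shIRF-1. Of the called genes, 946 had other probes tested, and for 521 of them another probe was called in the same direction, while 7 had one called in the opposite direction.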
